A study of Canis lupus familiaris with 32 samples.

Results

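The genes described here encode the mitochondrial ribosome and the respiratory chain, measured in 32 primary canine osteosarcomas. The rule that chose them used gene symbols and no measured value, though it was set with earlier results of these data known: MRPL and MRPS for the ribosome, and NDUF, SDH, UQCR, CYC1, CYCS, COX and ATP5 for the complexes of the chain, cytochrome c and ATP synthase. Of the 5246 genes named on the arrays, 113 were members, 50 of the ribosome (32 of the large and 18 of the small subunit) and 63 of the chain. The chain list held 27 subunits of complex I, 3 of complex II, 7 of complex III, 6 of complex IV, 9 of ATP synthase, cytochrome c and 10 assembly factors. Members were placed in subunits and complexes by symbol alone, so that these counts, and those below, follow the names and not the structures. ATP5IF1, an inhibitor of ATP synthase, is for instance counted with ATP synthase. All 113 were tested, since no filter on low values was applied. The members had 165 probes, and 76 of them rested on 1 probe.

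Mitochondrial ribosomes translate the few messages of mitochondrial DNA, which encode core subunits of the respiratory chain, while all ribosomal proteins and most chain subunits are encoded in the nucleus and imported. Complexes I to IV pass electrons from NADH and succinate to oxygen, complexes I, III and IV pump protons, and ATP synthase uses the proton gradient to make ATP. The chain is therefore built from products of both genomes. Osteosarcoma is a malignant tumor of bone-forming cells, and its tissue can also hold osteoclasts, leukocytes, vessels and adjoining muscle, which is rich in respiratory chain.

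Each tumor came from 1 dog that had received no therapy before the tissue was taken at surgery, and each was measured once. Short survivors (SS, 16 dogs) lived under 6 months and long survivors (LS, 16 dogs) lived longer, and dogs of either group could receive chemotherapy after the operation. Tumor RNA was amplified to cRNA and hybridized on a 2-color cDNA array against a reference pool of cRNA from the same 32 tumors, with the tumor labeled in Cy5 on 16 arrays and in Cy3 on the other 16, 8 of each survival group in each orientation. A value is the normalized log2 ratio of tumor over pool, so that 0 is the level of the pool, values of different genes cannot be set against each other as levels, and the presence of bone cells cannot be read from their markers. In these pieces of tissue, fewer cells of a type and less RNA per cell cannot be told apart. Array medians lay between -0.028 and 0.024 and array SDs between 0.474 and 0.762. Arrays of one orientation correlated at no less than 0.024 (Cy5) and 0.0041 (Cy3), while the median correlation across orientations was -0.26 and the mean profiles of both orientations correlated at -0.66, with the ratios turned to tumor over pool as the methods state. Of the 5246 genes, 3076 (58.6%) differed between the orientations in limma at an adjusted p under 0.10, 1736 (33.1%) of them with higher values on the Cy5 arrays. The main comparisons are therefore given within the orientations as well.

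Over all arrays most members of both lists had a higher mean in the tumors of short survivors, more of them on the Cy3 than on the Cy5 arrays, and no single member passed the test without a covariate. The mean was higher in SS for 79 of the 113 members (69.9%), for 35 of 50 ribosome genes and for 44 of 63 chain genes, beside 56.6% of all genes. The median log2 difference, SS minus LS, was 0.10 for the ribosome and 0.070 for the chain, beside 0.022 over all genes. By limma with Benjamini-Hochberg adjustment over all 5246 genes, 0 members and 0 of all genes (0%) reached an adjusted p under 0.10. At an unadjusted p under 0.05 there were 15 members, all higher in SS, 8 in the ribosome and 7 in the chain. That was 13.3% of the members, beside 443 (8.44%) of all genes, of which 300 (5.72%) were higher and 143 (2.73%) lower in SS.

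With the dye orientation as a block, 2 members passed the threshold, MRPS31 (adjusted p = 0.034, limma) and MRPL19 (adjusted p = 0.071), beside 30 (0.572%) of all genes. At an unadjusted p under 0.05 the block gave 18 members higher in SS and 1 lower, MRPS33, beside 455 (8.67%) of all genes higher and 254 (4.84%) lower, 709 (13.5%) together. On every alternative scaling of the arrays both lists kept a median above 0. The differences of single members, by complex, show most points close to 0 with the median of each large complex above that of all genes.

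**Figure D1:**
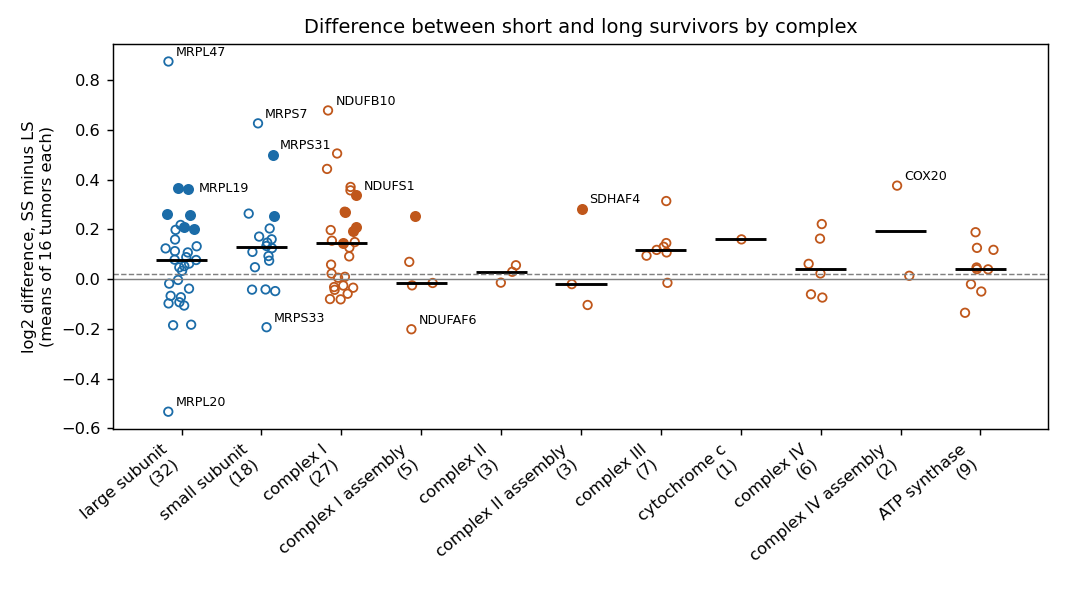
Log2 difference of the group means, SS minus LS (16 tumors each), of each of the 113 members, by complex (number of members in parentheses; blue ribosome, orange chain; filled points p under 0.05 in limma, unadjusted; horizontal bars median of the complex). The dashed line is the median of all 5246 genes, 0.022; the complex medians lie between -0.020 for complex II assembly and 0.20 for complex IV assembly, and the points farthest from 0, MRPL47, NDUFB10, MRPS7 and MRPL20, belong to the most variable members.

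Of the small subunit, 14 of 18 proteins had a higher mean in SS, with a median difference of 0.13. MRPS31, a small subunit protein, was among the genes the study itself picked from these arrays for a higher level in SS, and its values are therefore no independent evidence of that direction. The study also reported a higher MRPS31 level in SS by quantitative PCR, which is not part of the values here. In SS tumors its log2 ratio ran from -0.36 over a median of 0.15 to 0.865, and in LS tumors from -0.84 over a median of -0.39 to 0.44. The groups overlapped, but 10 of the 16 LS tumors lay below the lowest SS tumor and 14 of the 16 SS tumors exceeded the mean of LS. The lowest SS tumor was on a Cy5 array, where values of MRPS31 were lower, and the 10 included all 8 LS tumors on Cy5 arrays. Means were 0.24 ± 0.41 (SD, n = 16) in SS and -0.26 ± 0.36 (SD, n = 16) in LS, a log2 difference of 0.50 ± 0.13 (SE) or 1.41-fold. Limma gave an adjusted p of 0.260 without a covariate, and a permutation test of this single value gave p = 0.00115 (two-sided, 100000 resamples). The difference of the gene between the dye orientations was nearly as large as that of survival, from a mean of -0.23 on Cy5 arrays to 0.22 on Cy3 arrays.

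Within the orientations the difference of MRPS31 was of similar size. On Cy5 arrays the 8 LS tumors lay between -0.84 and -0.36 and the 8 SS tumors between -0.36 and 0.80, with all 8 SS tumors above all 8 LS tumors, though the lowest SS value (-0.3638) and the highest LS value (-0.3641) nearly touched. The difference was 0.55 (p = 0.000155, exact permutation test over 12870 splits). On Cy3 arrays the LS tumors lay between -0.50 and 0.44 and the SS tumors between -0.014 and 0.865, a difference of 0.45 (p = 0.0183, exact permutation test). Both orientations belong to the arrays on which the study chose MRPS31. Neither p-value is independent of that choice, and neither is adjusted for the number of genes. Full separation of this kind held for 38 (0.724%) of all genes on Cy5 arrays and for 15 (0.286%) on Cy3 arrays. Among the members it held for MRPS31 and COX20 on Cy5 arrays and for NDUFB7 on Cy3 arrays. Both MRPS31 probes gave the difference, at 0.61 and 0.40, and their levels correlated at 0.94 over the 32 tumors after the means of survival group and orientation had been removed.

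MRPS28, also of the small subunit, was measured by 2 probes that correlated at -0.24. Their mean ran from -0.58 over a median of -0.14 to 0.56 in SS and from -0.72 over -0.36 to 0.23 in LS, and only 8 of the 32 tumors lay above the pool. Its difference was 0.25 ± 0.11 (SE, adjusted p = 0.480 in limma), 0.42 on Cy5 and 0.086 on Cy3 arrays. MRPS33 ran the other way, with a median of -0.028 in SS (-0.63 to 0.46) and 0.19 in LS (-0.46 to 0.50). Its difference was -0.19 ± 0.096 (adjusted p = 0.593, limma), -0.24 on Cy5 and -0.15 on Cy3 arrays. MRPS33 was the member with the smallest p among those lower in SS, and the groups overlapped over most of their range.

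Of the large subunit, 21 of 32 proteins had a higher mean in SS, with a median of 0.078. MRPL19, whose bacterial counterpart sits at the interface of the ribosomal subunits, ran from -0.49 over a median of 0.35 to 0.60 in SS and from -0.66 over a median of -0.10 to 0.49 in LS. The mean was higher in SS by 0.36 ± 0.13 (SE, adjusted p = 0.389 without a covariate and 0.071 with the orientation as a block, limma), with 13 SS tumors higher than the mean of LS. On the Cy3 arrays the 8 SS tumors were close together, at 0.52 ± 0.089 (SD), against 0.091 ± 0.23 in the 8 LS tumors, and this difference of 0.43 passed the test on those arrays alone (adjusted p = 0.041, limma), beside 110 (2.1%) of all genes. On the Cy5 arrays the spread was wider, with -0.057 ± 0.33 in SS and -0.35 ± 0.31 in LS (adjusted p = 0.469 within these arrays, limma). MRPL19 rested on 1 probe.

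The next large subunit proteins in order of p were all higher in SS and none passed the adjusted threshold without a covariate. MRPL30, the counterpart of a bacterial protein, had a median of 0.11 in SS and -0.12 in LS (difference 0.20 ± 0.077, adjusted p = 0.438, limma), with 0.22 on Cy5 and 0.18 on Cy3 arrays and probes that correlated at 0.15. MRPL50, without a bacterial counterpart, had medians of 0.16 and -0.087 (difference 0.26 ± 0.11, with 0.15 on Cy5 and 0.38 on Cy3 arrays), and 14 SS tumors exceeded the mean of LS. MRPL57 had medians of 0.22 and -0.066 (difference 0.37 ± 0.17), reached 1.36 in 1 SS tumor and -1.13 in 1 LS tumor, and differed by 0.51 on Cy5 and 0.22 on Cy3 arrays. MRPL33 and MRPL35 differed by 0.21 and 0.26. MRPL57 was called only when the arrays were scaled and the orientation was a block (adjusted p = 0.067, limma), beside 69 of all 5246 genes.

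Of the large subunit proteins with lower means in SS, the 5 with the smallest p had differences between -0.18 and -0.067, while the widely varying MRPL20 lay at -0.53 ± 0.77 (-0.19 without LS tumor 26). MRPL16 had a difference of -0.18 ± 0.16 (SE, adjusted p = 0.800 in limma), MRPL2 of -0.11, MRPL43 of -0.067, MRPL23 of -0.093 and MRPL27 of -0.097. MRPL16, MRPL2 and MRPL43 were lower in SS within both orientations. MRPL23 and MRPL27 were lower on Cy5 arrays, at -0.27 and -0.42, and higher on Cy3 arrays, at 0.086 and 0.23. For each of these 5 proteins the 95% confidence interval of the difference included 0, from -0.50 to 0.14 for MRPL16 and from -0.37 to 0.18 for MRPL27.

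**Figure D2:**
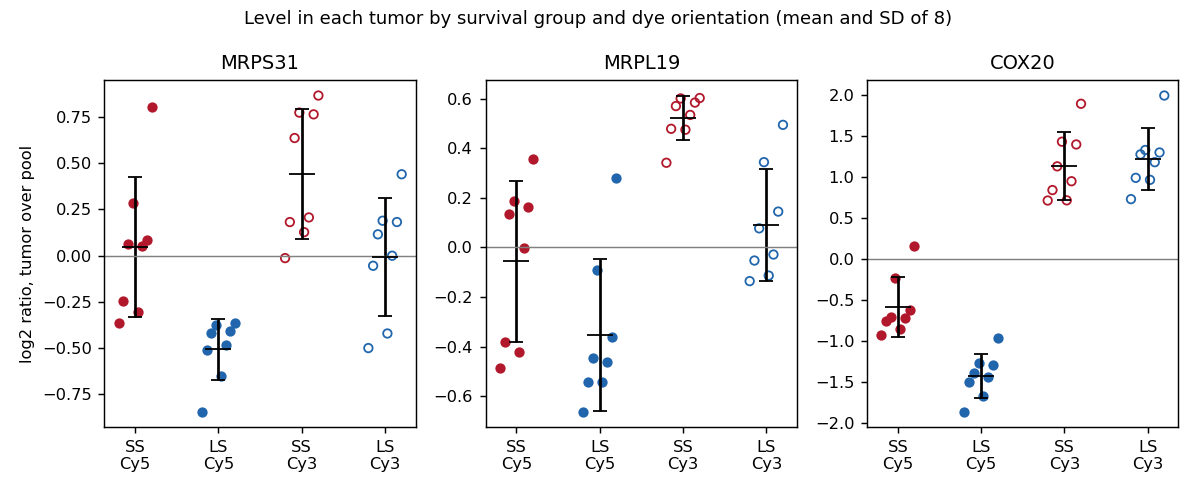
Log2 ratio of tumor over pool of MRPS31, MRPL19 and COX20 in each of the 32 tumors, by survival group (red SS, blue LS) and dye orientation (filled Cy5, open Cy3), with the mean and SD of the 8 tumors. MRPS31 and MRPL19 have a higher mean in SS in both orientations, COX20 only on the Cy5 arrays (0.84 against -0.087), and all 3 have higher means on the Cy3 arrays.

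In the chain, complex I held most of the members with a small p. Of its 27 subunits 20 had a higher mean in SS, the median difference was 0.15 and 5 reached an unadjusted p under 0.05, all higher. NDUFS1, the large core subunit with iron-sulfur clusters at the electron entry, ran from -0.45 over a median of 0.22 to 1.24 in SS and from -0.47 over a median of -0.15 to 0.44 in LS. Its difference was 0.34 ± 0.13 (SE, adjusted p = 0.476, limma), 0.24 on Cy5 and 0.44 on Cy3 arrays. NDUFS5, an accessory subunit, ran from -0.29 over a median of 0.15 to 0.40 in SS and from -0.28 over -0.088 to 0.33 in LS. The difference was smaller, 0.20 ± 0.068 (adjusted p = 0.389, limma), but nearly equal in the orientations at 0.20 and 0.19, and 14 SS tumors exceeded the mean of LS.

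NDUFC2, a subunit of the membrane arm, had medians of 0.092 in SS and 0.0087 in LS and a difference of the means of 0.21 ± 0.080 (SE), with 0.16 on Cy5 and 0.26 on Cy3 arrays. NDUFAB1, the acyl carrier protein that complex I shares with mitochondrial fatty acid synthesis, differed by 0.27 (0.38 on Cy5, 0.16 on Cy3) and NDUFA6 by 0.20 (0.25 and 0.14). The 2 probes of NDUFAB1 correlated at only 0.046, and those of NDUFA6 at 0.82. NDUFB7, of the membrane arm, was among the least variable members and differed by 0.15 ± 0.061 over all arrays, but by 0.293 on Cy3 arrays (adjusted p = 0.041 within these arrays, limma) and by 0.00097 on Cy5 arrays. On the Cy3 arrays the 8 SS tumors lay between -0.032 and 0.26 and the 8 LS tumors between -0.28 and -0.040. The test of the difference between the orientations did not pass for NDUFB7 (adjusted p = 0.109, limma). The core subunit NDUFS3 had a difference of -0.081, with a 95% confidence interval of -0.38 to 0.22.

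The assembly factors of the chain split evenly, with 5 of 10 higher in SS and a median of -0.00072. NDUFAF2, a late factor of complex I assembly, ran from -0.20 over a median of 0.16 to 0.92 in SS and from -0.45 over -0.032 to 0.33 in LS (difference 0.26 ± 0.098 SE, adjusted p = 0.438, limma), with 0.35 on Cy5 and 0.16 on Cy3 arrays. NDUFAF6, another factor of complex I, was lower in SS at -0.20 ± 0.18, and at -0.20 in each orientation. SDHAF4, which helps the flavoprotein subunit into complex II, had the second smallest p of all members. It ran from -0.35 over a median of 0.19 to 0.57 in SS and from -0.48 over -0.099 to 0.42 in LS, a difference of 0.28 ± 0.097 (adjusted p = 0.389, limma), and the mean of LS was exceeded in 13 SS tumors. On Cy5 arrays SDHAF4 differed by 0.40 and on Cy3 arrays by 0.17. SDHAF1, which serves the iron-sulfur subunit of the same complex, differed by -0.10, by -0.35 on Cy5 and 0.14 on Cy3 arrays.

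COX20, a chaperone of the mitochondrially encoded subunit COX2 of complex IV, was the one member whose difference between SS and LS itself differed between the orientations (adjusted p = 0.048 for the interaction, limma), beside 162 (3.09%) of all genes. On Cy5 arrays the 8 SS tumors ran from -0.93 over a median of -0.71 to 0.15 and the 8 LS tumors from -1.86 over -1.42 to -0.96, without overlap. On Cy3 arrays the SS tumors ran from 0.71 over 1.04 to 1.89 and the LS tumors from 0.73 over 1.23 to 1.99, with nearly full overlap. The difference was 0.84 on Cy5 arrays (adjusted p = 0.0081, limma), where 111 (2.12%) of all genes passed, and -0.087 on Cy3 arrays. The difference of COX20 between the orientations, Cy5 minus Cy3, was -2.18, the lowest of all members, and its 1 probe gives no second reading.

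Complexes II, III and IV, cytochrome c and ATP synthase held no subunit with an unadjusted p under 0.05 and no call. Within complex II the iron-sulfur subunit SDHB had the smallest p, with a difference of 0.056 ± 0.12 (SE). Of complex III 6 of 7 subunits had a higher mean in SS (median 0.12), led by the small subunit UQCR10 at 0.31 ± 0.23, whose SS tumors ran from -0.70 over a median of -0.12 to 2.61 and whose LS tumors ran from -0.77 over -0.35 to 0.88. Without SS tumor 4, the highest, the difference of UQCR10 was 0.15 ± 0.17. Of complex IV 4 of 6 were higher (median 0.042), with COX5A at 0.22 ± 0.15, COX4I1 at -0.061 ± 0.088 and COX5B at -0.074 ± 0.14. COX6A2, the form of subunit VIa of heart and skeletal muscle, differed by 0.023 ± 0.078. Cytochrome c (CYCS), the mobile electron carrier, differed by 0.16 ± 0.14. Of ATP synthase 6 of 9 were higher (median 0.040), from ATP5J2 of the membrane part at 0.19 ± 0.14 to ATP5MC2 of the rotor ring at -0.14 ± 0.16. The 95% confidence interval of ATP5MC2 ran from -0.45 to 0.18 and that of COX5A from -0.087 to 0.53.

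Within the dye orientations, 63 of the 113 members had a higher mean in SS on the Cy5 arrays and 91 on the Cy3 arrays, beside 2743 (52.3%) and 2975 (56.7%) of all genes, and the medians of the members were 0.046 and 0.14. In the chain 34 of 63 were higher on Cy5 arrays, near the share of all genes. The gap was wider in the chain, with a median of 0.017 on Cy5 and 0.143 on Cy3 arrays, than in the ribosome, with 0.055 and 0.146; whether the lists differ in this was not tested. Higher in SS in both orientations were 53 members (46.9%), 25 of the ribosome and 28 of the chain, beside 1543 (29.4%) of all genes. Lower in both were 12 members, beside 1071 (20.4%) of all genes. Complex I held 16 subunits higher in both and 3 lower in both. All 9 genes placed with ATP synthase were higher on the Cy3 arrays and only 3 of them on the Cy5 arrays, where their median was -0.092.

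**Figure D3:**
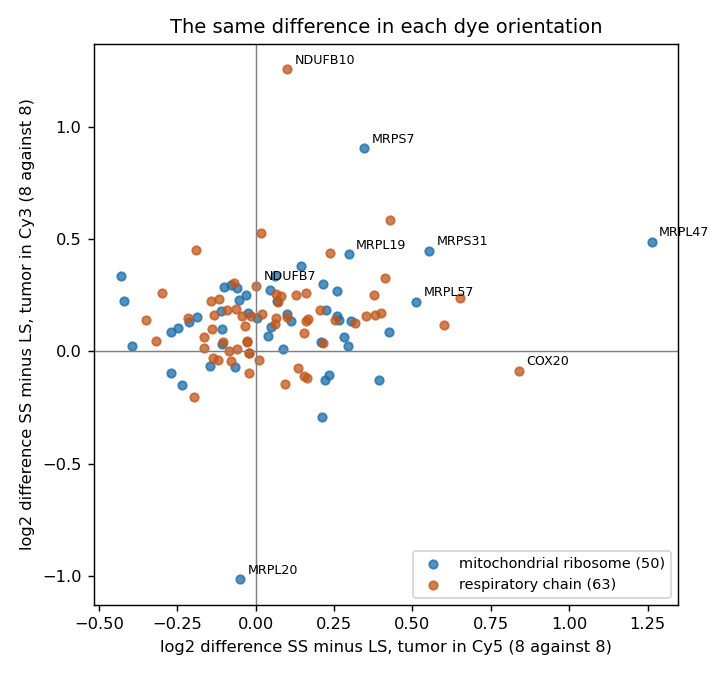
Log2 difference of the means, SS minus LS, of each member on the 16 arrays with the tumor in Cy5 (horizontal) and on the 16 arrays with the tumor in Cy3 (vertical), 8 tumors against 8 on each axis (blue ribosome, orange chain). The upper right field, higher in SS in both, holds 53 of the 113 members and the lower left field 12; MRPS31 lies at 0.55 and 0.45, and COX20, at 0.84 and -0.087, is the one member whose interaction passed the test.

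Between the orientations 55 of the 113 members (48.7%) passed the threshold, 36 of them with higher values on Cy5 arrays, against the 58.6% of all genes given above. The largest differences between the orientations, Cy5 minus Cy3, were those of NDUFB10 at 3.59, MRPL15 at 3.03, MRPL20 at 2.26 and COX20 at -2.18. Each survival group had 8 tumors in either orientation. Different tumors were measured in each orientation, so that these differences also hold those between the tumors. The difference between the orientations was not the same in both groups for COX20, whose mean went from -0.58 on Cy5 to 1.13 on Cy3 arrays in SS and from -1.42 to 1.22 in LS.

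Members varied over tumors somewhat more than other genes. The median SD over tumors, after the means of survival group and orientation had been removed, was 0.32 for the members and 0.27 for all genes. At the upper end were MRPL20 at 1.99, MRPS7 at 1.81, MRPL15 at 1.74, MRPL47 at 1.67 and NDUFB10 at 1.54, each on 1 probe and each above the 98th percentile of all genes. At the lower end were UQCR11 at 0.098, NDUFB7 at 0.12, MRPS12, a protein near the decoding center, at 0.15, NDUFS8, a core iron-sulfur subunit, at 0.16 and SDHC, a membrane anchor of complex II, at 0.16.

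MRPL47 stood apart in its level. Relative to a pool that contained the same tumors, 29 of the 32 tumors lay below -1, with medians of -3.45 in SS and -3.76 in LS. Tumor 2, an SS tumor, lay at 4.16, and the next highest tumors at 0.079, -0.44 and -1.86. The difference of the means, with tumor 2 included, was 0.88 ± 0.56 (SE, adjusted p = 0.692, limma), and without it 0.42 ± 0.36.

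The other members of wide spread had tumors far out on both sides of the pool. MRPL20 ran from -4.65 over a median of -0.21 to 2.06 in SS and from -2.78 over -0.71 to 5.32 in LS. MRPS7 ran from -2.30 over a median of 0.28 to 4.32 in SS and from -6.43 over 0.33 to 2.84 in LS. Values of MRPL15 in LS tumors reached from -3.86 to 6.93 (tumor 20, with the next highest tumor at 3.23), and NDUFB10 spanned -4.54 to 4.32 in SS and -5.59 to 4.07 in LS. On the Cy5 arrays the mean of NDUFB10 was 1.77 and on the Cy3 arrays -1.82. Without a covariate, the survival differences of these members, such as 0.63 ± 0.68 (SE) for MRPS7 and 0.68 ± 0.81 for NDUFB10, were no larger than their standard errors. With the orientation as a block, the fits of their single probes gave smaller standard errors. These were 0.61 for MRPS7 and 0.53 for NDUFB10, below the differences, and 0.67 for MRPL20 and 0.58 for MRPL15, above the size of the differences.

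The ribosome and the chain varied together over the tumors. The mean log2 ratio of the 50 ribosome genes ran from -0.22 over a median of -0.053 to 0.18 in SS and from -0.338 over -0.18 to 0.26 in LS, with means of -0.0094 ± 0.12 (SD, n = 16) and -0.11 ± 0.19. The mean of the 63 chain genes ran from -0.26 over a median of 0.029 to 0.34 in SS and from -0.46 over -0.069 to 0.24 in LS, with means of 0.038 ± 0.18 and -0.069 ± 0.19. The groups overlapped in both. Over the 32 tumors the 2 means correlated at r = 0.73 (rho = 0.75), at 0.72 without the 2 tumors farthest from the median, at 0.60 on the 16 Cy5 and 0.79 on the 16 Cy3 arrays, and at 0.65 after the means of survival group and orientation had been removed.

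These correlations are descriptions, since both means come from the same arrays and share the dye and the pool. The mean of all 5246 genes correlated with the ribosome at r = 0.61 (rho = 0.73) and with the chain at r = 0.76 (rho = 0.71). Without the 5 most variable members, an alternative chosen after the values were seen, the ribosome and the chain correlated at 0.75 over all tumors, at 0.74 on Cy5 and at 0.91 on Cy3 arrays. MRPS31 followed the others little. Over all arrays its level correlated at -0.076 (rho = -0.060) with the mean of the other ribosome genes and at 0.032 (rho = -0.027) with the chain. Within the orientations these values were 0.17 and 0.24 on Cy5 and 0.11 and 0.28 on Cy3 arrays. With the means of survival group and orientation removed they were -0.081 and 0.096.

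**Figure D4:**
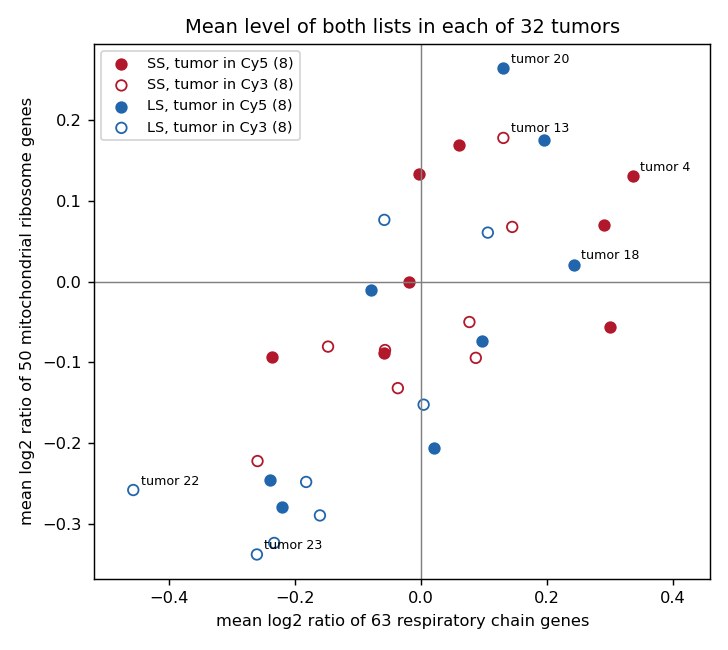
Mean log2 ratio of the 63 chain genes (horizontal) against that of the 50 ribosome genes (vertical) in each of the 32 tumors (red SS, blue LS; filled tumor in Cy5, open tumor in Cy3). The points rise together (r = 0.73, n = 32); the lowest chain mean is that of LS tumor 22 at -0.46, the lowest ribosome mean that of LS tumor 23 at -0.338, and SS and LS tumors overlap.

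A count per tumor gives less weight to single genes and orders the tumors differently from the means. Taking each member against the mean of its own dye orientation, the tumors of short survivors had 22 to 83 of the 113 members above that mean (median 64) and those of long survivors 17 to 77 (median 40.5). Highest were SS tumors 16, 15 and 13, with 83, 82 and 82 members above, and LS tumors 27 and 18, with 77 and 76. Lowest were LS tumors 32, 25 and 29, with 17, 18 and 18, and SS tumor 7, with 22. In LS tumor 32 this was 6 of the 63 chain genes and 11 of the 50 ribosome genes. The share of all genes above the mean ran over a narrower range, from 37.9% to 55.6%, and correlated at r = 0.82 with the share of members.

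**Figure D5:**
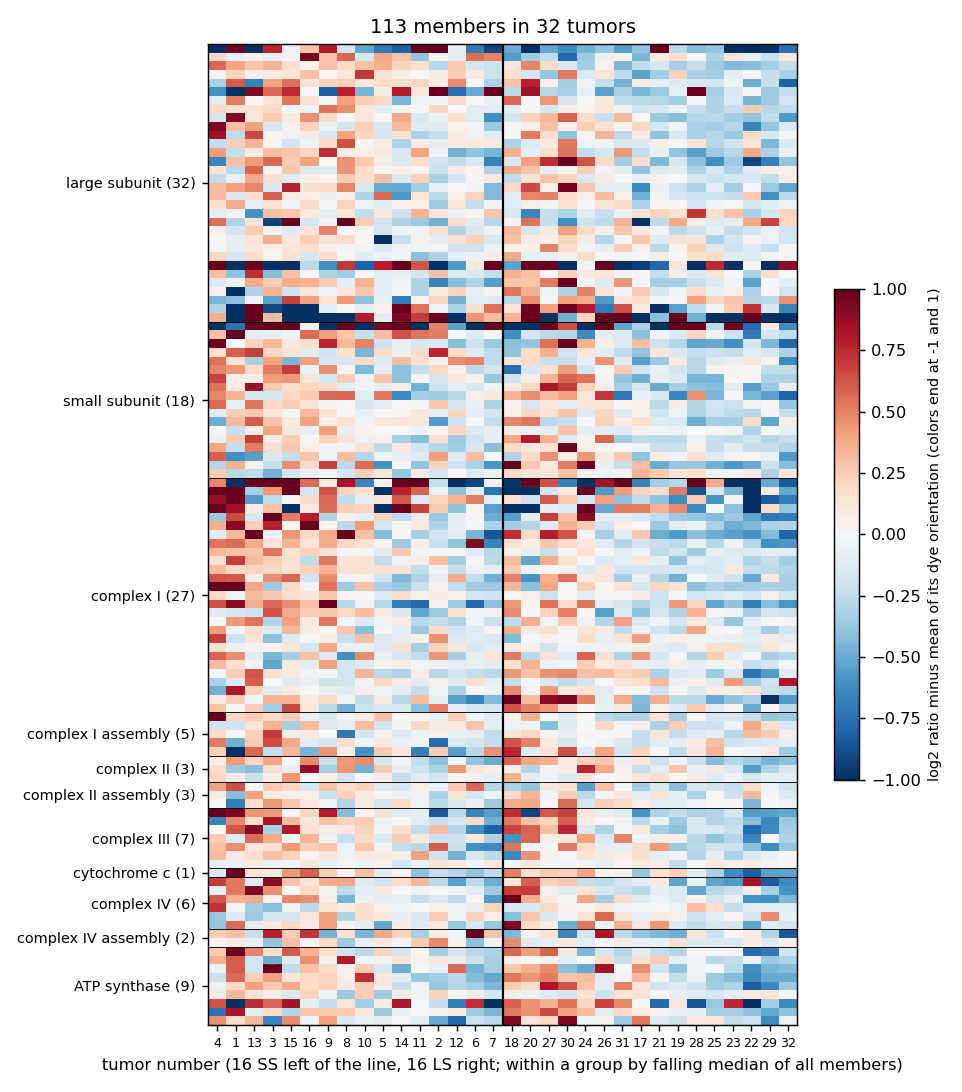
Log2 ratio of each of the 113 members (rows, by complex, within a complex by falling difference SS minus LS) in the 32 tumors (columns, SS left and LS right of the line, within a group by falling median), as the difference from the mean of the tumor's dye orientation; colors end at -1 and 1. The order of the columns, from SS tumor 4 to SS tumor 7 and from LS tumor 18 to LS tumor 32, was taken from these same values, so that a fall in color along each group is built in; the rows that reach both ends without order are the most variable members.

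Among single members the likeness was uneven. The median correlation of a member with the mean of the other members of its list was 0.51 in the chain, where 33 of 63 members exceeded 0.5, and 0.32 in the ribosome, where 11 of 50 did. The most variable members weigh most in these means. The ribosome holds MRPL20, MRPS7, MRPL15 and MRPL47 of them, and the chain NDUFB10. Their part in the gap between the lists was not tested. The members most like the chain were ATP5MC1 of the ATP synthase rotor ring at 0.84, COX8A of complex IV at 0.79, NDUFV3 of complex I at 0.78, ATP5F1A, the alpha subunit of ATP synthase, at 0.78 and NDUFA8 at 0.75. In the ribosome MRPS15 led at 0.73. Running against their list were MRPL17 at -0.55, NDUFAF3 at -0.34, UQCR11 at -0.33, COX4I1 at -0.26 and MRPL57 at -0.25, and for 8 members in all the correlation was below 0. These members were picked out after the values were seen, as were the pairs that follow.

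Pairs of members of different complexes were among the closest. ATP5MC1 and NDUFV3 correlated at 0.85, ATP5F1A and SDHB at 0.83, the complex I subunits NDUFB3 and NDUFV2 at 0.829, and ATP5MC1 and the ribosomal MRPL27 at 0.82. The median over all pairs was 0.13 within the ribosome, 0.20 within the chain and 0.15 between them, beside 0.0039 over all pairs of genes. It was 0.27 within complex I and 0.27 within ATP synthase, but 0.00089 within complex IV. All these values are over 32 tumors with the means of survival group and orientation removed.

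Probes of one gene did not always give one direction. Of the 37 members with several probes, 24 had the same sign on every probe and 13 did not. The gap was widest in MRPL42, with 3 probes between -0.45 and 0.23, followed by ATP5PO, a stalk subunit of ATP synthase, between -0.30 and 0.20, COX6A2 between -0.18 and 0.25, MRPS15 with 5 probes between -0.12 and 0.27, UQCRC2, a core protein of complex III, between -0.070 and 0.26, and ATP5IF1, the inhibitor of ATP synthase, between -0.067 and 0.17. The median correlation between the probes was -0.079 for MRPL42, 0.038 for COX6A2, 0.035 for UQCRC2, 0.016 for ATP5IF1 and 0.20 for ATP5PO, and 0.52 for MRPS15. The gene means of MRPL42, ATP5PO, COX6A2, UQCRC2 and ATP5IF1 all lay within 0.10 of 0 in their difference. Probes of one sign could also correlate poorly, at -0.49 for the pair of COX4I1 and at the -0.24 of MRPS28 given above.

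Other genes of the pathway, outside these families, also had mostly higher means in SS over all arrays, but not on the Cy5 arrays. Of these genes 44 were measured, 32 of them had a higher mean in SS (median 0.087), 5 reached an unadjusted p under 0.05, all higher, and 0 passed the adjusted threshold. Of mitochondrial translation 10 of 15 were higher (median 0.074), with the initiation factor MTIF3 at 0.24 (adjusted p = 0.389, limma) and the ribosome-associated PTCD3 at 0.32. Of the factors for mitochondrial DNA and biogenesis 8 of 9 were higher (median 0.094), with the transcription factor TFB2M at 0.34. Of the import machinery and carriers 9 of 13 were higher (median 0.091), with the small Tim proteins TIMM8A at 0.29 (adjusted p = 0.349, limma) and TIMM9 at 0.35. Of the assembly and insertion factors 5 of 7 were higher (median 0.011). Within the orientations, 36 of the 44 were higher in SS on the Cy3 arrays and 18 on the Cy5 arrays (median -0.030), and 13 (29.5%) were higher in both, near the share of all genes. The import machinery and carriers had 2 of 13 higher on Cy5 and 13 on Cy3 arrays, with TIMM9 at -0.0036 and 0.70. The assembly and insertion factors had 0 and 6 of 7 higher, and translation 7 and 12 of 15. The factors for mitochondrial DNA and biogenesis ran the other way, with 9 of 9 on Cy5 and 5 on Cy3 arrays.

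Markers of other cells in the tissue also had unequal means in the groups, though no marker passed the adjusted threshold. Of 21 measured skeletal muscle genes, 20 had a lower mean in SS (median -0.18), DES and MB at an unadjusted p under 0.05 and 0 past the adjusted threshold. The muscle level, the mean log2 ratio over these genes, ran from -0.50 to 0.94 in SS and from -0.47 to 1.33 in LS, and it correlated with the ribosome at r = 0.088 (rho = -0.32) and with the chain at r = -0.032 (rho = -0.32) over the 32 tumors. All 3 measured osteoclast markers and 6 of 8 leukocyte markers had higher means in SS (medians 0.45 and 0.17), 0 of them at an unadjusted p under 0.05. Osteoclast levels ran from -1.83 to 1.57 in SS and from -2.20 to 0.87 in LS, leukocyte levels from -0.77 to 1.63 and from -0.71 to 0.63. Of osteoblast markers 2 of 5 were higher in SS, among them PHEX at 0.31 with an unadjusted p under 0.05 (limma). Of endothelial markers 1 of 3 was higher in SS over all arrays, 0 on Cy5 and 3 on Cy3 arrays. Of cartilage markers 0 of 2 were higher over all arrays, 2 on Cy5 and 0 on Cy3 arrays. For erythroid and adipocyte cells 0 markers were measured. Endothelial levels correlated at r = -0.41 (rho = -0.49) with the ribosome and at r = -0.42 (rho = -0.40) with the chain, but at -0.64 and -0.77 on the Cy5 and at -0.23 and -0.13 on the Cy3 arrays. Osteoclast levels correlated at r = -0.38 (rho = -0.37) with the ribosome (-0.28 on Cy5, -0.38 on Cy3) and at r = -0.056 (rho = -0.19) with the chain. The part of these cells in the values of the members was not tested.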

How the data were processed

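For each of the 32 arrays the authors flagged defective spots, applied Lowess within print tips and took logarithms. They then turned the arrays with the tumor in Cy3, so that the log2 ratios they deposited all stand for tumor over pool. The base of the logarithm and the image software are not given in the sources used here, and base 2 was assumed. Signal over background was not analysed here. Gene names came from the platform annotation: 7694 of the 22176 probes carried 1 symbol, 0 carried several, and 14482 were unnamed. Of the 113 members 106 were matched to RefSeq by gene identifier, with 0 symbols changed. Probes of a gene were averaged.

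SS and LS were compared on the gene means with limma 3.58.1 in R 4.3.3 (two-sided, no covariate, Benjamini-Hochberg over 5246 genes, threshold 0.10), with the dye orientation as a block, within each orientation and with the interaction. MRPS31 also had permutation tests in Python 3.11.15, and SAM, a rank-sum test and probe fits were alternatives. The fits were also run on simulated data, with independent noise in each gene and the same dye shift in both groups. That simulation did not cover genes that vary together or a dye shift that differs between the groups. P-values rest on the spread between tumors, each hybridized once, so that array noise is part of it. Without a covariate, that spread over all arrays also holds the difference between the dye orientations.

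Named are MRPS31, members called on all arrays or for the interaction, the 6 higher and 6 lower members of each list with the smallest p, the smallest p of each complex, the 5 most and 5 least variable members, tissue isoforms of complex IV and up to 6 members with opposed probes. Others were chosen after their values were seen. The members and lists were chosen with earlier results of these data known. Promoter sequences were not used here.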

Additional observations from a re-analysis of the deposited data

How the results depend on the processing

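The count of members called between SS and LS was 0 in the model without a covariate and in the fits with each array left out (0 to 0), with centring, scaling, array weights or the most variable probe, with each probe on its own and by the rank-sum test. It was 2 with the dye orientation as a block (MRPS31 and MRPL19), 2 on Cy5 arrays alone (MRPS31 and COX20), 2 on Cy3 arrays alone (MRPL19 and NDUFB7), 3 with scaling and the block (MRPS31, MRPL19 and MRPL57), 2 with each probe on its own and the block (MRPS31 and MRPL19) and 1 by SAM (MRPS31). The counts for all 5246 genes were 30 (0.572%) with the block, 111 (2.12%) on Cy5 arrays and 110 (2.1%) on Cy3 arrays. Scaling with the block called 69 of all genes, and array weights called 11. Among all probes, 94 were called with the block and 49 by SAM. The difference of MRPS31, 0.50, passed the threshold with the block (0.50, adjusted p = 0.034, limma), on Cy5 arrays (0.55, adjusted p = 0.072) and with scaling and the block (0.50, adjusted p = 0.0198), and ran from 0.46 to 0.55 with each array left out (adjusted p 0.149 to 0.407). Over all its settings it was lowest with array weights, at 0.38. The median difference of the ribosome ran from 0.074 to 0.124 with each array left out and was 0.093 without MRPS31. That of the chain ran from 0.056 to 0.096 and was 0.017 on Cy5 arrays. Neither turned its sign in any setting run. The correlation of both lists moved from 0.73 to 0.91 on Cy3 arrays without the 5 most variable members, a setting added after seeing the data; the cause was not tested. With the block, 43 of the 44 other named members kept their side of the threshold and MRPL19 passed it. Their differences could not change with the block, since each orientation held 8 tumors of each group, so that only the standard errors and p-values moved. No paired analysis was possible because the groups were made up of different dogs. The search of promoters for motifs was not run. The number of arrays and the dye limit the precision.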
